A study of Rattus norvegicus with 6 samples.

Results

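Complement and coagulation factors are plasma proteins that the liver makes and secretes. They were taken as all probe sets whose platform annotation gives exactly 1 gene symbol from a list of 41 genes. In this way 43 probe sets were found for 35 of the 41 genes, out of 31042 tested probe sets and 14217 named genes. F7, F11 and F13b had no such annotated probe set, and Kng1, C2 and Cfb were listed only on probe sets that carry several symbols, so these 6 genes were not analysed here. By role, the 35 genes comprised 9 of coagulation (12 probe sets), 9 of its inhibitors and of fibrinolysis (9 probe sets) and 17 of complement (22 probe sets).

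Liver RNA of male Wistar rats, 6 weeks old when purchased and weighing about 150 g, was measured on 6 Affymetrix arrays. Livers of the low-protein group (5P, n = 3) and of the control group (15P, n = 3) came from rats that had first spent 4 days on pellets and 4 days being trained on the control diet, offered for part of each day. Each rat then received its own diet, of equal energy content, for 8 hours, and the liver was taken 16 hours after that meal period ended. Both groups were therefore fasted, and the diets differed over a single feeding period. The labels do not state that each array is a separate animal, so the p-values measure the spread between these samples, which may in part be technical.

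Coagulation runs as a chain of zymogens, each cut into an active protease by the one before it. The chain ends in thrombin, made from the F2 product, which turns fibrinogen into fibrin. Several of these proteins need vitamin K for a modification that lets them bind calcium and membranes. Serpins and the protein C system hold the chain in check, and plasmin, made from the Plg product, dissolves the clot. Complement is a second protease chain that starts on antibodies, on sugars or by itself, converges on C3, and ends with C5 to C9 assembling a pore in the target membrane. Hepatocytes supply most of these proteins to plasma, and several of the genes respond to inflammation as part of the acute phase response.

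Most members were very bright on these arrays. A mean log2 intensity of 10 or more was reached by 35 of the 43 member probe sets, against 1348 of all 31042 probe sets. The hepatocyte markers fixed for the check were bright too, with Alb at a mean log2 intensity of 14.4 in low-protein livers and 14.4 in control livers. Values are the logarithm to base 2 of the deposited RMA intensities, and log2 fold changes subtract the control mean from the low-protein mean, so that negative values are lower in low-protein livers. Array medians lay between 33.3 and 34.2 as intensities. On the first principal component of all probe sets, which held 36.9% of the variance, control replicate 3 scored -10.11, against 17.34 to 22.59 on the low-protein arrays and -26.91 and -22.45 on the other controls, so the main counts are also given without it. In bulk liver RNA, fewer hepatocytes and less RNA per hepatocyte cannot be told apart.

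No member rose or fell at an adjusted p under 0.05 (limma, Benjamini-Hochberg over all probe sets), which 41 of all probe sets, or 0.132%, did (0.0966% lower and 0.0354% higher). At an unadjusted p under 0.05, 6 of the 43 member probe sets stood lower in low-protein livers and 0 stood higher, where the share of all probe sets was 7.58% lower and 7.83% higher. These 6 belong to C8a, C9, C6, C5, Masp2 and Fga. Groups did not overlap in 11 member probe sets, each time with the low-protein arrays below the controls, against 9.12% of all probe sets; none lay above, against 12.5% of all. Among all probe sets with a mean log2 of 10 or more, 11.5% were lower at an unadjusted p under 0.05. The 35 members there included 4, or 11.4%, so on the lower side the members' share was that of the background. In either direction, 26% of all probe sets that bright had such a p, against 11.4% of the members. As deposited, 85.7% of those members were below 0, against 47.1% of all at that brightness. The non-overlapping share at that brightness was 25.7% of members and 16.2% of all.

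Differences were small across the list. The median log2 fold change of the 43 probe sets was -0.12, against 0.03 over all probe sets, and 36 were below 0, where 41.9% of all probe sets were. That count depended on how arrays were scaled: 40 were below 0 with arrays centred on their medians (48.6% of all), 36 after quantile normalization (47.0% of all) and 26 with arrays centred on their 75th percentiles (31.2% of all). The 95% interval of the difference stayed within a 1.41-fold change either way for 35 of the 43 probe sets, and within a 1.23-fold change for 18. The plot of all 43 differences shows most intervals crossing 0.

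**Figure D1:**
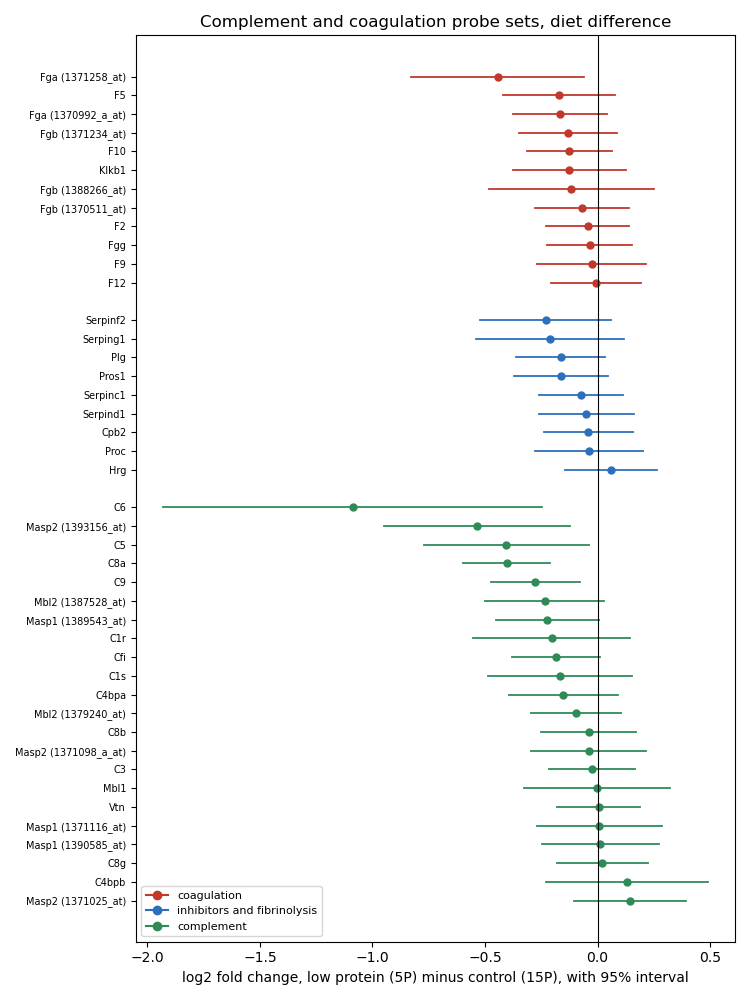
Log2 fold change of each member probe set, low protein (5P) minus control (15P), with its 95% interval from limma (n = 3 arrays a diet), by role class and sorted within it. The intervals of 6 of the 43 probe sets exclude 0, all on the lower side, and C6 has the widest.

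Of the 6 member probe sets with an unadjusted p under 0.05, 4 were of terminal complement genes, whose products build the membrane attack pore. Of the 6 genes, 4 stood lower at an unadjusted p under 0.05 (C8a, C9, C6 and C5) and 2 did not (C8b and C8g), with a median log2 fold change of -0.34. Of all probe sets 7.58% stood lower at that p, and 11.5% of those with a mean log2 of 10 or more. The terminal genes were set apart with earlier results of these data known, so their count is a description. None passed over all probe sets. The 16 other complement probe sets had a median of -0.07, the 12 of coagulation -0.12 and the 9 of inhibitors and fibrinolysis -0.07.

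C8a (gene ID 298288) encodes the alpha chain of C8, the chain that, with C9, inserts into the target membrane. It read 11.37, 11.38 and 11.49 (log2) in low-protein livers, against 11.87, 11.80 and 11.78 in control livers. All 3 low-protein values lay below all 3 controls, and the arrays of each diet were close together. The log2 fold change was -0.40 (SE 0.085, 95% interval -0.60 to -0.21), or 1.32-fold lower, with the smallest p of any member and an adjusted p = 0.0978 by limma. It did not pass in any of the 16 alternative settings either (adjusted p = 0.0722 to 0.255).

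The partner chains had differences near 0. C8b, the beta chain, read 11.92, 12.01 and 12.15 in low-protein livers, against 12.10, 12.06 and 12.03 in control livers. C8g, the small gamma chain of the lipocalin family, read 12.37, 12.35 and 12.51 in low-protein livers, against 12.36, 12.43 and 12.38 in control livers. For both the groups overlapped, with log2 fold changes of -0.04 (95% interval -0.25 to 0.17) and 0.02 (95% interval -0.18 to 0.22), whose sign changed with the scaling or with an array left out. The C8a value minus the C8b value ran from -0.66 to -0.55 in low-protein livers and from -0.26 to -0.23 in control livers, a change of -0.36. Against C8g the change of C8a was -0.43, and C8b minus C8g changed by -0.06. These pairs of chains were chosen after their values were seen, so the changes are given with no test.

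C9 (gene ID 117512), which polymerises to form the ring of the pore, read 12.59, 12.65 and 12.65 in low-protein livers, against 12.99, 12.87 and 12.85 in control livers. The groups did not overlap, and the range within each diet was smaller than the gap between them. The log2 fold change was -0.28 (SE 0.086, adjusted p = 0.194), or 1.21-fold lower. C5 (gene ID 362119), the protein whose cleavage starts pore assembly, read 10.998, 11.13 and 10.48 in low-protein livers, against 11.35, 11.28 and 11.20 in control livers. Its groups did not overlap either, but low-protein replicate 3 was far below the other arrays of that diet. The log2 fold change of -0.41 (SE 0.160, adjusted p = 0.279) was -0.21 without that array.

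C6 (gene ID 24237), which joins C5b in the first step of the pore, had the largest difference of the list and the largest scatter. It read 9.20, 7.72 and 8.40 in low-protein livers, against 10.11, 9.14 and 9.33 in control livers. Low-protein replicate 1 lay above control replicate 2, so the groups overlapped. The log2 fold change was -1.09 (SE 0.368, 95% interval -1.93 to -0.25), or 2.13-fold lower, with an adjusted p = 0.223. It ran from -1.47 without low-protein replicate 1 to -0.73 without low-protein replicate 2. The plot of the 6 terminal genes shows these patterns on axes of equal span.

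**Figure D2:**
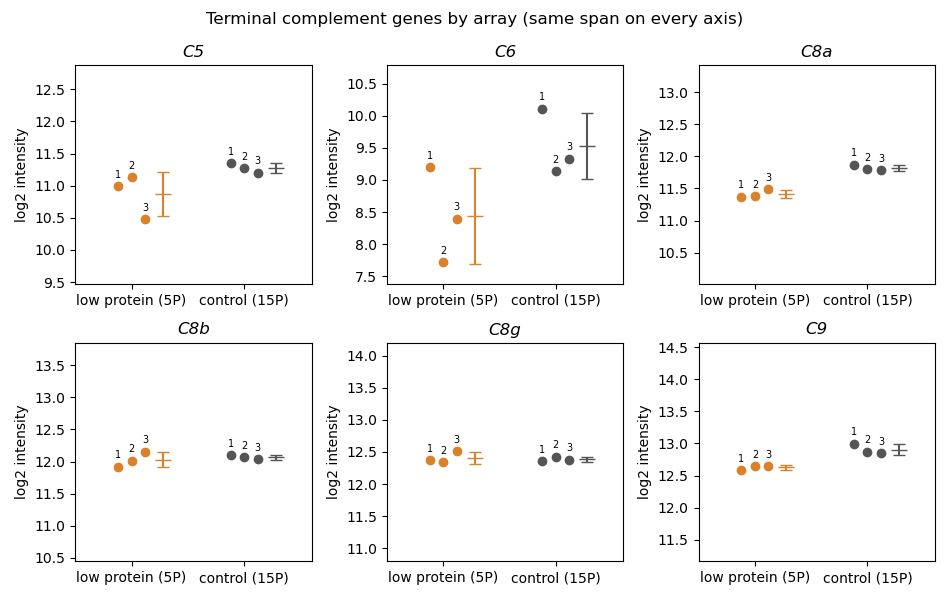
Log2 intensity of the 6 terminal complement genes on each array (points, numbered by replicate), with the mean ± SD beside them, low protein (5P) left and control (15P) right. C8a and C9 separate the diets with little scatter, C5 does so with 1 low array, C6 scatters most, and C8b and C8g overlap.

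The DNA around the start of the terminal genes is shown for C8a, C6 and C5, which stood lower, and for C8b, whose interval lay around 0. C8a and C8b are neighbours on rat chromosome 5 with 0 protein-coding genes between them in the RefSeq table, and their strands point toward each other, so each has its own start. The windows are from RefSeq (GRCr8), read on the gene's strand, with 250 bases before the start and 50 after it. Capitals mark matches on either strand to the liver-factor and core motifs named after the sequences.
C8a promoter, chr5:124866582-124866881, - strand: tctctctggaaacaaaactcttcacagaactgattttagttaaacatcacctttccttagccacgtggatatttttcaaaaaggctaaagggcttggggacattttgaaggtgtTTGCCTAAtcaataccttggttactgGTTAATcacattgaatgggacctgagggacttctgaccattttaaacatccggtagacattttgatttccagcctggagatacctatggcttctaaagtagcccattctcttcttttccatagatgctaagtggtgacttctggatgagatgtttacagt
C8b promoter, chr5:124763864-124764163, + strand: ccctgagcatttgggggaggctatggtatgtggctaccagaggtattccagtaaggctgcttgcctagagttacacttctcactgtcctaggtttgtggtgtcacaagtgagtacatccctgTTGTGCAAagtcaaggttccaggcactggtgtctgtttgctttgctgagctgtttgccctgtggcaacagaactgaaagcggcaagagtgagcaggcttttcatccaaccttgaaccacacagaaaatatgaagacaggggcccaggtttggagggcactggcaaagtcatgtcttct
C6 promoter, chr2:55573383-55573682, + strand: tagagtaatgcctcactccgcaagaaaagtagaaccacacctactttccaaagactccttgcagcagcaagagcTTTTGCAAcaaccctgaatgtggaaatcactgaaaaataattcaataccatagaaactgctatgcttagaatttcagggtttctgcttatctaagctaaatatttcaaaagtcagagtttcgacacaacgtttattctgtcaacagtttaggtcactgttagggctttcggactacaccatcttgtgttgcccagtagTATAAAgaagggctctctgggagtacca
C5 promoter, chr3:38759419-38759718, - strand: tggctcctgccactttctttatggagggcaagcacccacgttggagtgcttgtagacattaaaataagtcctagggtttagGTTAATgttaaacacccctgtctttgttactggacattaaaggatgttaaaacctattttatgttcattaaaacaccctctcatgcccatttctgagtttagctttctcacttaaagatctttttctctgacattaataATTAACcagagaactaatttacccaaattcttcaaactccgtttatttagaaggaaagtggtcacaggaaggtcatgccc

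The motif letters searched were TTGCNNAA for C/EBP, GTTAAT for the HNF1 core, AAAGTCC for HNF4, CTGGGAA for the type II interleukin-6 response element, TGATGNAA for the element bound by ATF4 with C/EBP, and TATAAA for the TATA box. Both strands were searched, and none of these letter strings contains another. Of the 41 list genes 31 had a window, among 33469 windows in the table. The C/EBP letters were found in 12 of the 31 (38.7%), among them C8a, C8b and C6, against 10.6% of all windows. The HNF1 core was found in 10 of 31 (32.3%), including C8a and, at 2 places, C5, against 7.45% of all, and the interleukin-6 letters in 10 of 31 (32.3%), including Fgg, Fgb and C3, against 11.3%. TATAAA was found in C6 and Fgg, 6.45% against 14.2% of all. In C6 these letters lie after the start, among the last 50 bases of the window, and not at the upstream place of a TATA box. Neither the HNF4 letters nor the ATF4 element were found in any of the 31 windows, against 4.63% and 3.98% of all. C8b, with an interval around 0, and C8a both hold the C/EBP letters, and only C8a of this pair holds the HNF1 core. Whether any of these letters bear on the differences was not tested.

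Complement genes before the terminal step differed little, and their probe sets did not always agree. C3, the central component that all starting routes cut, read 13.76, 13.80 and 13.73 in low-protein livers, against 13.84, 13.79 and 13.72 in control livers. The groups overlapped fully, with a log2 fold change of -0.02 (95% interval -0.22 to 0.17). Cfi, the protease that inactivates C3b and C4b, read 12.96, 12.91 and 12.89 in low-protein livers, against 13.19, 13.03 and 13.10 in control livers. Its groups did not overlap, and the log2 fold change was -0.18 (SE 0.086, adjusted p = 0.349). C4bpa and C4bpb, the chains of the protein that holds C4b for that cleavage, had -0.15 and 0.13, each with overlapping groups. Without control replicate 1 they had -0.06 and 0.24, and C4bpb had -0.02 without low-protein replicate 3. Vtn, which blocks insertion of the pore and also binds the inhibitor of plasminogen activators, averaged 13.40 ± 0.05 in low-protein livers and 13.40 ± 0.02 in control livers (SD, n = 3 each).

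C1r and C1s, neighbouring genes for the proteases that start the classical route, had log2 fold changes of -0.20 and -0.17. On both, control replicate 1 was the highest array and low-protein replicate 1 the lowest: C1r read 11.04, 11.39 and 11.52 in low-protein livers, against 11.77, 11.38 and 11.42 in control livers. Without control replicate 1, C1r had -0.08 and C1s -0.04. Without low-protein replicate 1, both had -0.07.

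In the lectin route, Mbl1 and Mbl2 encode the mannose-binding lectins, and Masp1 and Masp2 the proteases they carry. Mbl1 had a log2 fold change of -0.002 (95% interval -0.33 to 0.32). The probe sets of Mbl2 had -0.10 (1379240_at) and -0.23 (1387528_at), the second reading 9.66, 9.65 and 9.56 in low-protein livers, against 9.87, 9.65 and 10.06 in control livers. Those groups overlapped, since control replicate 2 lay within the low-protein range, and the difference was -0.13 without control replicate 3.

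The 3 Masp2 probe sets pointed different ways. The 1393156_at probe set read 6.37, 6.38 and 5.75 in low-protein livers, against 6.53, 6.90 and 6.67 in control livers, a difference of -0.53 (SE 0.180, adjusted p = 0.222) that was -0.33 without low-protein replicate 3. The brighter 1371025_at and 1371098_a_at had 0.15 and -0.04, with overlapping groups. A difference in Masp2 was therefore seen only on its dimmest probe set. The 3 Masp1 probe sets also differed. One, 1389543_at, at 5.62, 5.61 and 5.87 in low-protein livers against 5.93, 5.88 and 5.96 in control livers, had -0.22 (adjusted p = 0.333). The brightest Masp1 probe set, 1390585_at, had 0.01, and the remaining one, 1371116_at, had 0.008; both changed sign under some alternatives.

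All 12 coagulation probe sets were below 0 as deposited, where 41.9% of all probe sets were. With arrays centred on their 75th percentiles 4 of them were above 0, and 31.2% of all probe sets were below 0. One of the 12, of Fga, had an unadjusted p under 0.05, where 7.58% of all probe sets stood lower. F2, the prothrombin gene, read 13.06, 13.08 and 13.13 in low-protein livers, against 13.17, 13.13 and 13.11 in control livers. The groups overlapped, and the interval of the difference ran from 0.853-fold to 1.10-fold.

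The other vitamin K dependent genes measured here were F9, F10, Proc and Pros1. F10, the protease that makes thrombin, read 11.81, 11.91 and 11.92 in low-protein livers, against 11.99, 11.99 and 12.03 in control livers. These groups did not overlap, with a difference of -0.13 (SE 0.082, adjusted p = 0.501). F9, the gene altered in human haemophilia B, had -0.03 with overlapping groups. The 5 vitamin K dependent genes together had a median of -0.04. F5, the cofactor of F10, read 10.50, 10.44 and 10.66 in low-protein livers, against 10.76, 10.82 and 10.53 in control livers. Control replicate 3 fell inside the low-protein range; the log2 fold change was -0.17 (adjusted p = 0.491), -0.26 without that array and -0.11 without control replicate 2. In the contact system, which starts clotting on foreign surfaces, F12 had -0.008 and Klkb1, plasma prekallikrein, -0.12, both with overlapping groups.

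Fibrinogen is assembled from the products of Fga, Fgb and Fgg, which lie next to each other on rat chromosome 2. On their brightest probe sets these genes were among the highest of the whole array. Fgg read 13.71, 13.70 and 13.76 in low-protein livers, against 13.81, 13.77 and 13.70 in control livers. Fgb (1370511_at) read 13.62, 13.63 and 13.64 in low-protein livers, against 13.83, 13.65 and 13.62 in control livers. Both overlapped, and the log2 fold changes were -0.03 and -0.07.

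Fga (1370992_a_at) read 13.58, 13.54 and 13.50 in low-protein livers, against 13.81, 13.71 and 13.59 in control livers, a difference of -0.17 (SE 0.091, adjusted p = 0.423). The dimmer Fga probe set, 1371258_at, read 11.37, 11.40 and 11.51 in low-protein livers, against 12.29, 11.71 and 11.61 in control livers. The groups did not overlap on either, but control replicate 1 stood well above the other controls on the dimmer one. Its log2 fold change was -0.44 (SE 0.169, adjusted p = 0.264), and -0.23 without control replicate 1. The remaining Fgb probe sets, 1371234_at and 1388266_at, averaged 3.96 and 3.03 in low-protein livers and 4.09 and 3.15 in control livers. These levels are under the median of all values, 5.08.

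Among the inhibitors and the fibrinolysis genes no unadjusted p was under 0.05, against 15.4% of all probe sets in either direction. As deposited, 8 of 9 probe sets were below 0 (41.9% of all). With arrays centred on their 75th percentiles, 6 of 9 were (31.2% of all). Serpinc1, which encodes antithrombin, read 13.26, 13.30 and 13.30 in low-protein livers, against 13.34, 13.42 and 13.33 in control livers. The groups did not overlap, yet the log2 fold change was -0.07 (95% interval -0.26 to 0.11). Plg, the plasminogen gene, read 12.73, 12.81 and 12.87 in low-protein livers, against 13.03, 12.90 and 12.97 in control livers. Its groups did not overlap either, with a difference of -0.16 (SE 0.087, adjusted p = 0.408).

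Serpinf2, the gene of the plasmin inhibitor, read 10.37, 10.62 and 10.79 in low-protein livers, against 10.93, 10.67 and 10.88 in control livers, a difference of -0.23 (SE 0.127, adjusted p = 0.426) that was -0.12 without low-protein replicate 1. Pros1, protein S, the cofactor of protein C, read 10.84, 10.99 and 10.79 in low-protein livers, against 11.10, 11.03 and 10.99 in control livers, with -0.16 (SE 0.091, adjusted p = 0.430). Both pairs of groups overlapped. Serping1, the inhibitor of C1r, C1s and the contact proteases, read 11.92, 11.86 and 11.94 in low-protein livers, against 12.46, 12.01 and 11.89 in control livers. Its -0.21 was -0.04 without control replicate 1, the one high array. Proc, protein C, Serpind1, heparin cofactor II, and Cpb2, which shields fibrin from plasmin, had -0.04, -0.05 and -0.04. Hrg, a plasma glycoprotein that binds heparin and plasminogen, had 0.06, the one member of this class above 0.

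Control replicate 1 was the highest of the 6 arrays for 21 of the 43 member probe sets, against 16.2% of all probe sets. Low-protein replicate 1 was the highest array for none, against 14.4% of all probe sets. It was the lowest array for 20, a count whose share over all probe sets was not computed. As a mean over the 43, the arrays stood at -0.18, -0.15 and -0.10 in low-protein livers, against 0.08, -0.04 and -0.04 in control livers, each relative to the control mean. The per-array plot shows the same for the 3 classes. Without control replicate 1, 32 probe sets were below 0, against 42.1% of all, and the median was -0.06. In that fit 3 had an unadjusted p under 0.05 (C8a, C9 and Masp2), where 5.81% of all probe sets stood lower. Without low-protein replicate 1, 29 were below 0, against 41.8% of all, with a median of -0.07. Without control replicate 3, 35 were below 0, against 41.6% of all. In that fit 8 stood lower at an unadjusted p under 0.05, against 8.18% of all. C8a and C9 were under 0.05 in all 6 of these fits, each of which leaves out 1 array.

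**Figure D3:**
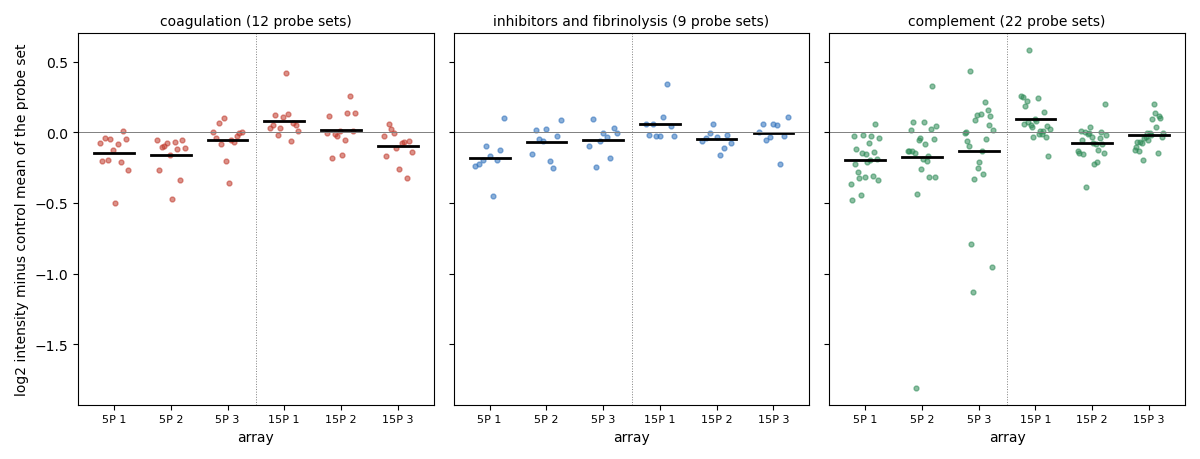
Log2 intensity of each member probe set (points) relative to its control mean on the 6 arrays, low protein (5P) left of control (15P) in each class; black bars are class means. Means of the complement class are -0.20, -0.18 and -0.14 on the low-protein arrays and 0.10, -0.08 and -0.02 on the controls.

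The order of the class medians was not stable. Without control replicate 1 the complement median was -0.05, the coagulation median -0.10 and the inhibitor median -0.06, so complement was then the class nearest 0. With all arrays the complement median (-0.1235) and the coagulation median (-0.1205) were almost equal, and the inhibitor median was -0.0745. The terminal complement median ran from -0.36 to -0.25 over the 6 fits.

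**Figure D4:**
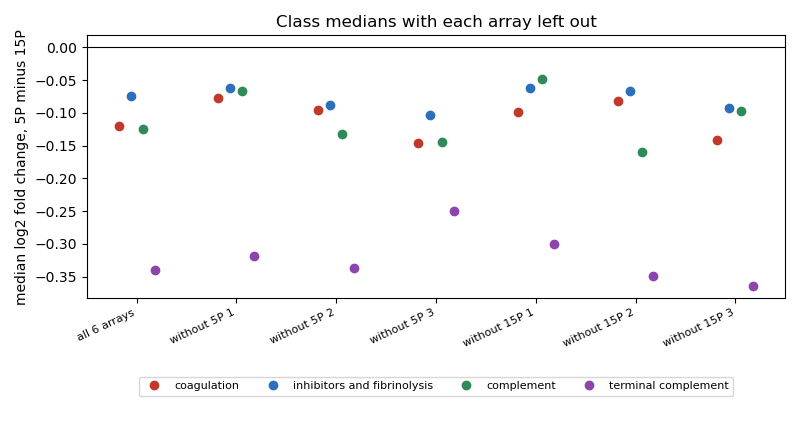
Median log2 fold change, low protein (5P) minus control (15P), of the 3 role classes and of the 6 terminal complement genes, with all arrays and with each array left out. All medians are below 0, the 3 classes change order, and the terminal genes lie lowest in each fit.

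The brightest members had small differences. The highest log2 value of any probe set was 14.4, and whether readings near the top of the scale understate differences was not tested. Of the 43 probe sets, 20 had a mean log2 of 12 or more, and their median log2 fold change was -0.04, with 1 (C9) at an unadjusted p under 0.05. Over all 290 probe sets that bright, 23.8% had an unadjusted p under 0.05 in either direction, 1 passed at an adjusted p under 0.05 and the largest difference was 1.20 in size. The plot of difference against brightness places the members at the right edge.

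**Figure D5:**
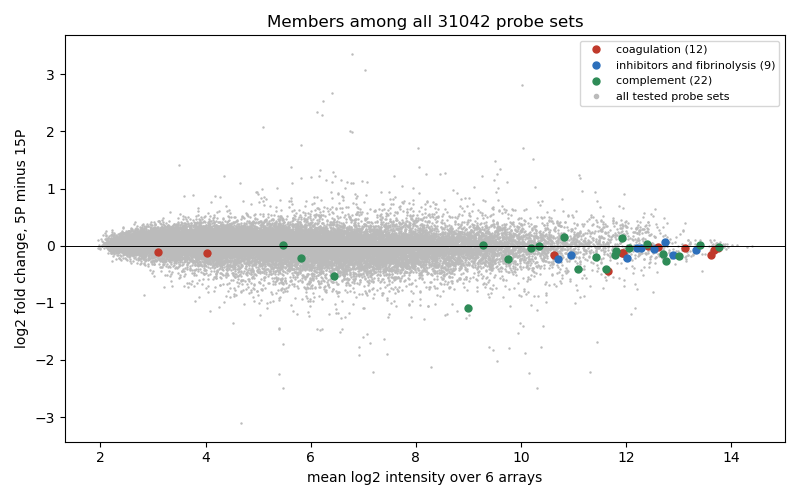
Log2 fold change, low protein (5P) minus control (15P), against mean log2 intensity for all 31042 probe sets (grey) and the 43 members by class. Most members lie at 10 or above on the intensity axis and close to 0, with C6 the lowest at -1.09.

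Other genes of the pathway, from a list of 59 of which 38 were measured by 52 probe sets, had no member past the test. At an unadjusted p under 0.05, 4 probe sets were lower and 1 higher, against 7.58% and 7.83% of all probe sets. The median log2 fold change of the list was 0.005. The 6 of smallest p were Cd46, a membrane regulator of complement, at -0.51 (adjusted p = 0.120), A2m, a broad protease inhibitor, at -0.62 (adjusted p = 0.131), Ggcx, the vitamin K dependent carboxylase, at -0.34, F8, the clotting cofactor, at -0.23, Thbd, the thrombin receptor of vessel walls, at 0.24, and F13a1, the catalytic chain of the fibrin cross-linker, at 0.21. The probe sets given for Cd46, Thbd and F13a1 were dim, under the median of all values, 5.08. They averaged 4.11, 3.86 and 3.64 in low-protein livers, against 4.62, 3.61 and 3.43 in control livers. For F8, Thbd and F13a1 the probe sets disagreed in sign. The other 4 of F8 had -0.29, 0.21, -0.04 and 0.01, the other 2 of Thbd -0.10 and 0.06, and the other of F13a1 -0.09. Acute phase genes (15 measured, 17 probe sets) had 1 probe set lower and 1 higher at an unadjusted p under 0.05 (Crp and Cp). The same 7.58% and 7.83% of all probe sets apply, and the median was -0.08. The Cp probe set that stood higher, at 0.54, was the dimmest of 3, and the brighter ones had -0.20 and -0.10. Of 20 probe sets for transcription factors and signalling genes of liver, 5 stood lower at an unadjusted p under 0.05, 4 of them for Cebpa, which encodes C/EBP alpha (log2 fold changes -0.49, -0.47, -0.46 and -0.35), and 1 for Hnf4a, at -0.26. The fifth Cebpa probe set had -0.29 with overlapping groups, and the other 2 of Hnf4a had 0.17 and, on the brightest, -0.01. Of all probe sets 7.58% stood lower at an unadjusted p under 0.05. The Cebpa and Hnf4a probe sets were named after their values were seen, and none passed, the lowest adjusted p by limma being 0.0932.

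The summed intensities of red blood cell and platelet markers were higher in low-protein livers, though no single marker passed. The 4 red blood cell markers (5 probe sets) had a summed intensity of 4049 to 4314 in low-protein livers and 2865 to 3118 in control livers. That sum is mostly Hbb, a chain of haemoglobin, at 0.48 (adjusted p = 0.0739). Alas2 had 0.43, while Slc4a1 (0.14 and 0.12) and Epb42 (-0.06) had overlapping groups. The 4 platelet markers, of which Pf4 and Ppbp had an unadjusted p under 0.05, summed to 313.6 to 382 in low-protein livers and 287 to 299.7 in control livers. Pf4 had 0.59 and Ppbp 0.25, while Itga2b (0.06) and Gp9 (0.02) had overlapping groups. Ppbp was dim, at 4.34 in low-protein livers and 4.09 in control livers, under the median of all values, 5.08. The 6 measured hepatocyte markers summed to 97730 to 99230 in low-protein livers and 100400 to 101700 in control livers. Those ranges did not overlap. Yet 4 of the 8 probe sets were lower and 4 higher, with a median log2 fold change of -0.009. Apoa1 (-0.19) and Cyp2c11 (-0.15) had groups that did not overlap, and the other probe sets lay between -0.025 and 0.048. Macrophage markers (7 measured) summed to 3470 to 4942 in low-protein livers and 2868 to 3667 in control livers. Of their probe sets 6 were higher and 1 lower, with a median log2 fold change of 0.14. None had an unadjusted p under 0.05. The 2 measured neutrophil markers, S100a8 at -0.30 and S100a9 at -0.43, summed to 66.98 to 102.8 in low-protein livers and 60.03 to 194.8 in control livers. Lymphocyte markers (4 measured) summed to 162.5 to 180.1 in low-protein livers and 159.3 to 185.1 in control livers. The sums of cholangiocyte (199.7 to 278.8 against 252.2 to 411.4), endothelial (1810 to 2469 against 1989 to 2441) and stellate markers (1829 to 2888 against 1947 to 3115) overlapped too. Of 4 cholangiocyte probe sets 3 were lower, Krt19 (-0.39) and Epcam (-0.55) at an unadjusted p under 0.05, and 1 was higher. One endothelial probe set, of Kdr, stood higher at that p (0.37), and the brighter Kdr probe set had -0.07. Beside these marker counts, 7.58% of all probe sets stood lower at an unadjusted p under 0.05 and 7.83% higher. The part of these markers in the members' differences was not tested.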

How the data were processed

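Liver RNA of 6 samples was labelled with biotin by an express kit for 3' arrays and measured on Affymetrix rat chips, as the labels' protocols state. The authors deposited 1 intensity per probe set and array, made with RMA per the submitters' processing notes, with a version not given in the sources used here. This step corrects background and normalizes between arrays, so a shift shared by most genes would not be seen. The deposited scale is linear; log2 was taken here, giving 1.85 to 14.4.

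Samples were grouped by title. Leaving out 57 control probe sets, 31042 were tested, unfiltered, by limma 3.58.1 (R 4.3.3) with moderated two-sided tests, Benjamini-Hochberg adjustment over all of them and a threshold of 0.05; intervals are at 95% with 8.38 degrees of freedom. Arrays have no read depth, and 3 per diet limit the precision. Names are those of the platform's annotation: 20826 probe sets had 1 symbol, 436 several and 9780 none. Every member was described, with values by array for the 16 probe sets of smallest p, the brightest probe set of 8 central genes, and some others chosen after their values were seen. The members and lists were chosen with earlier results of these data known. The procedure was tested on simulated data. Alternatives were the prior variance, the scaling of arrays, intensity filters, array weighting, replicate number as a block, leaving out each array, and 1 probe set per gene. Deviations of same-numbered arrays from their diet means correlated at -0.09, -0.03 and -0.10, which gave no sign of pairing by number. With 3 arrays a diet these deviations depend on each other, so the correlations cannot exclude pairing. Promoter windows are from RefSeq. Plots used matplotlib 3.10.9 (Python 3.11.15).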

Additional observations from a re-analysis of the deposited data

How the results depend on the processing

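No member probe set passed at an adjusted p under 0.05 in any of the 16 alternative settings, by limma. Between 3 and 8 stood lower at an unadjusted p under 0.05, 6 as deposited. The share of all probe sets lower at that p ran from 5.43% to 11.7% over the settings. The precision is limited by 3 arrays a diet; C6, of 0.368 SE, is the least precise member. Over all probe sets, 41 passed as deposited, 103 with a robust prior variance, 78 with arrays centred on the median, 102 with array weights, and 26 of 14217 genes with 1 probe set per gene. With the replicate number as a block 6 passed, with no member among them. With 1 array left out the count ran from 16 to 109.

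Of the 43 member probe sets, 26 kept their sign in every setting they entered and 17 did not, none of them larger than 0.13 in size as deposited. With arrays centred on the median, C8g had a log2 fold change of -0.00525, Masp1 -0.019 (1371116_at) and -0.015 (1390585_at), and Vtn -0.022. With arrays centred on the 75th percentile, F2 had 0.00444, F9 0.023, F12 0.041, Fgg 0.014, Proc 0.011, Cpb2 0.00871, C3 0.025, C8b 0.010, Mbl1 0.047 and Masp2 (1371098_a_at) 0.0105. After quantile normalization F2 had 0.021, C8g -0.000399, Mbl1 0.021 and Masp1 (1371116_at) -0.010, and with array weights Masp1 (1390585_at) had -0.032 and Vtn -0.000585. With 1 array left out, the sign also changed within these ranges: F9 -0.116 to 0.035, F12 -0.061 to 0.024, Fgb (1388266_at) -0.277 to 0.014, Proc -0.104 to 0.055, Serpind1 -0.087 to 0.011, Cpb2 -0.075 to 0.00375, C3 -0.059 to 0.00539, C4bpb -0.022 to 0.253, C8b -0.101 to 0.016, C8g -0.029 to 0.054, Mbl1 -0.114 to 0.120, Masp1 -0.096 to 0.096 (1371116_at) and -0.060 to 0.089 (1390585_at), Masp2 (1371098_a_at) -0.117 to 0.037 and Vtn -0.015 to 0.030. The cause was not tested. The 3 rescalings shifted the median of all probe sets by -0.027, 0.049 and -0.031. The share of calls upward was 16.7% with median centring, 40.7% with 75th-percentile centring and 26.8% as deposited.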
